A study of Mus musculus with 10 samples.

Results

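The loci of Lefty1, Lefty2, Nodal and Smad7, genes of Nodal signalling and its inhibition, held 103 of the 110170 peaks that ChIP-seq had placed in 4 lists for mouse pre-iPSCs. Members are the peaks that overlap 3 windows of mouse build mm9: chromosome 1 at 182790000-182900000 for Lefty1 and Lefty2, chromosome 10 at 60850000-60920000 for Nodal, and chromosome 18 at 75490000-75590000 for Smad7. Of the 103 peaks, 19 came from Sin3a in the Sin3a line, 16 from Sin3a beside added Nanog, 41 from FLAG-tagged Nanog in its own line and 27 from FLAG beside added Sin3a. Peaks that shared at least 1 base were merged into sites, which gave 39 of the 45707 sites of the whole series.

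All cells were pre-iPSCs, partly reprogrammed cells made from female neural stem cells of the 129/MF1 strain, with an Oct4-GFP-IRES-puro reporter, kept in serum with LIF. Every line had received PiggyBac-CAG transposon vectors, which drive constant expression, followed by drug selection. An empty vector accompanied Sin3a in the Sin3a line and FLAG-tagged Nanog in the Nanog line, while the Nanog + Sin3a line received both genes. FLAG was precipitated from the Nanog line, Sin3a from the Sin3a line, and both, in separate ChIPs, from the Nanog + Sin3a line, with 2 replicates in each of these 4 groups. FLAG antibody sees the tagged Nanog alone, whereas the Sin3a antibody does not separate added from endogenous Sin3a. The sources used here do not say whether a line was 1 clone, and peak lists carry no expression with which the cell type could be checked.

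Nodal is a secreted ligand of the TGF-β family. It acts through activin receptors and a co-receptor on Smad2 and Smad3, which enter the nucleus with Smad4 and act on target genes with partners such as Foxh1. Lefty1 and Lefty2 are secreted antagonists of Nodal and are themselves switched on by the pathway, which gives negative feedback, and Smad7 is an inhibitory Smad that acts on the type I receptors of the family. These genes are active in mouse pluripotent cells, in which Nanog is a core transcription factor and Sin3a a scaffold for histone deacetylase complexes.

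Each group has 1 deposited peak list, so no value below has a replicate and no difference was tested. Fold is the authors' enrichment at a peak's summit over the background expected there. Rank is by the authors' −log10 q, with rank 1 the strongest of 17168 (Sin3a, Sin3a line), 18231 (Sin3a, Nanog + Sin3a line), 38485 (FLAG, Nanog line) or 36286 (FLAG, Nanog + Sin3a line) peaks. Fragments are the whole number of ChIP fragments over the summit, solved from the fold and −log10 p, and their 95% Poisson intervals cover counting error only. The median peak held 46, 38, 33 and 39 fragments in these lists, in that order. The windows were set around the named genes and may hold parts of their neighbours. In the order of a RefSeq gene table of another build, GRCm38, Nodal lies between Pald1 and Eif4ebp2, and Smad7 between Dym and Ctif. Gene positions in mm9 were not used here, so no peak was assigned to a gene, exon, intron or promoter. A site or peak named by a gene below is one in that gene's window.

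**Figure D1:**
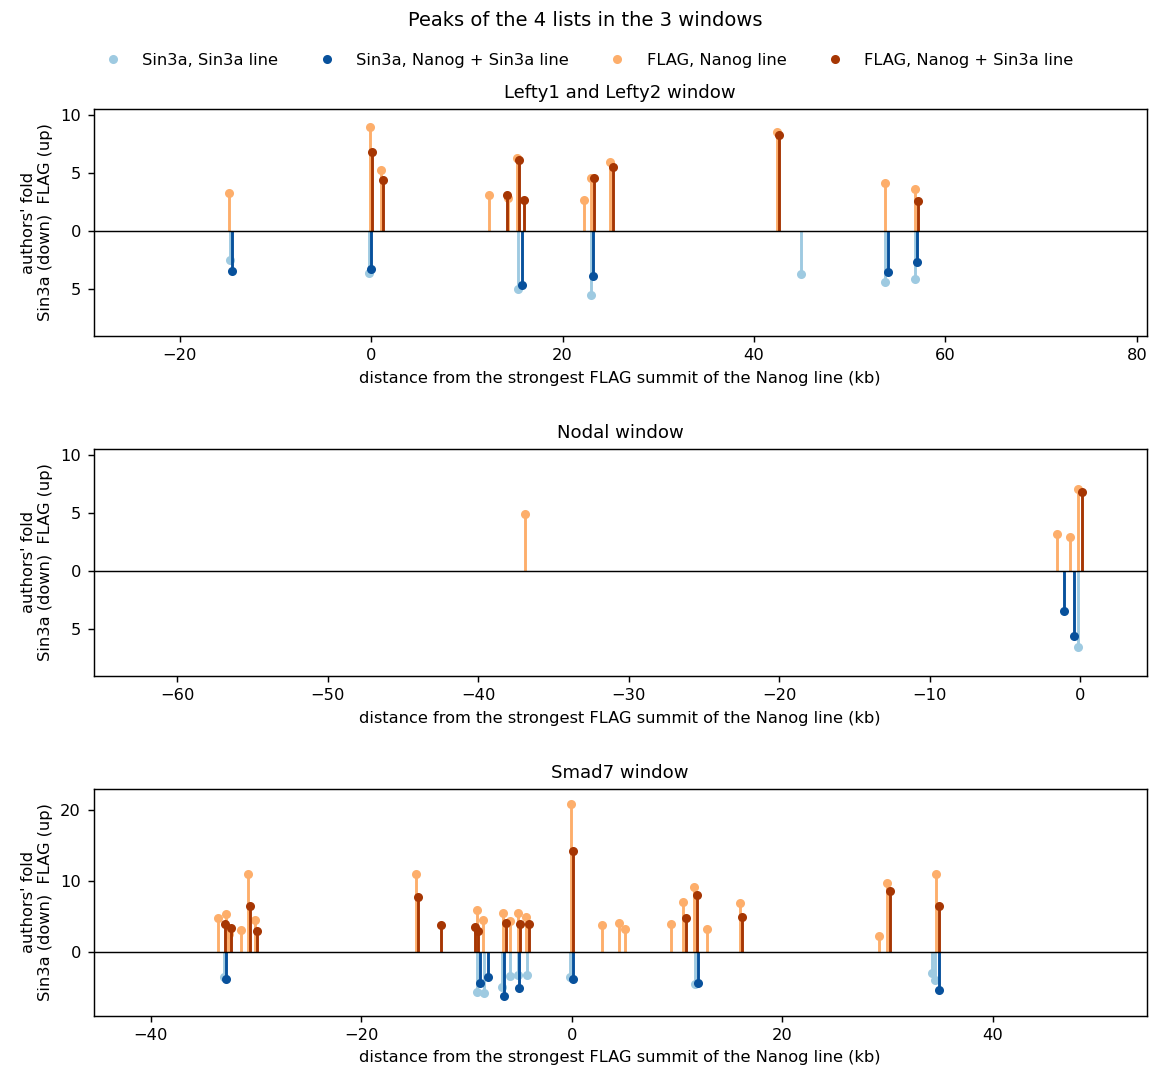
Peaks of the 3 windows, drawn as the authors' fold (y axis, FLAG upward and Sin3a downward) against the distance in kb of each summit from the strongest FLAG summit of the Nanog line in that window (x axis), with 1 colour per list and the lists shifted slightly sideways for clarity. The Smad7 window holds the highest FLAG fold, 20.9 in the Nanog line, and 24 of the 39 sites, and the Nodal window holds 2 sites 35198 bp apart.

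The Smad7 window had the most peaks in each list, and it held the strongest FLAG peaks. For FLAG it held 25 peaks of the Nanog line and 17 of the Nanog + Sin3a line, and for Sin3a 11 of the Sin3a line and 8 of the Nanog + Sin3a line. Among 26342 consecutive windows of 100 kb along the chromosomes, 0.0607% held at least 25 FLAG peaks of the Nanog line and 0.171% at least 17 of the Nanog + Sin3a line. For Sin3a, 0.311% held at least 11 peaks of the Sin3a line and 1.28% at least 8 of the Nanog + Sin3a line. The 24 sites lay within 68.8 kb, with a median gap of 780 bp, and 13 of the gaps were under 1 kb.

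The Lefty1 and Lefty2 window held 13 sites over 72.0 kb, with 12 FLAG peaks of the Nanog line, 9 of the Nanog + Sin3a line, 7 Sin3a peaks of the Sin3a line and 6 of the Nanog + Sin3a line. Of 23946 windows of 110 kb, 1.93% and 3.14% held as many FLAG peaks, and 1.82% and 3.04% as many Sin3a peaks. Nodal's window was sparse by comparison. It held 2 sites, with 4 FLAG peaks in the Nanog line, 1 FLAG peak in the Nanog + Sin3a line, 1 Sin3a peak in the Sin3a line and 2 beside added Nanog. In windows of 70 kb these counts were reached by 9.59%, 36.6%, 21.3% and 11.5% of 37636. The median window of that length held 0 peaks of each list. The counts of the Nodal window were thus above the median, but less rare than those of the other windows.

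Sites with both proteins made up similar shares of the windows and of the genome. Peaks of all 4 lists met at 12 of the 39 sites (30.8%), against 25.7% of all sites. Both antibodies had a peak at 16 sites (41.0%, against 37.2%), FLAG alone at 22 (56.4%, against 57.5%) and Sin3a alone at 1 (against 5.27%). FLAG in both lines without Sin3a was found at 10 sites (against 26.9%). Of 19 Sin3a peaks from the Sin3a line, 18 shared bases with FLAG of the Nanog line (94.7%, 95% Wilson interval 75.4 to 99.1%), against 88.5% of the list. Within the Nanog + Sin3a line this held for 12 of 16 (75.0%, 50.5 to 89.8%), against 80.3%. Conversely, 20 of 41 FLAG peaks lay at Sin3a peaks between the single-transgene lines (48.8%, 34.3 to 63.5%, against 41.8%) and 14 of 27 within the Nanog + Sin3a line (51.9%, 34.0 to 69.3%, against 42.2%). All 4 list shares lie within these intervals. With only peaks of a −log10 q of at least 10 in every list, the FLAG shares were 6 of 20 (30.0%, against 39.2%) and 3 of 13 (23.1%, against 35%).

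**Figure D2:**
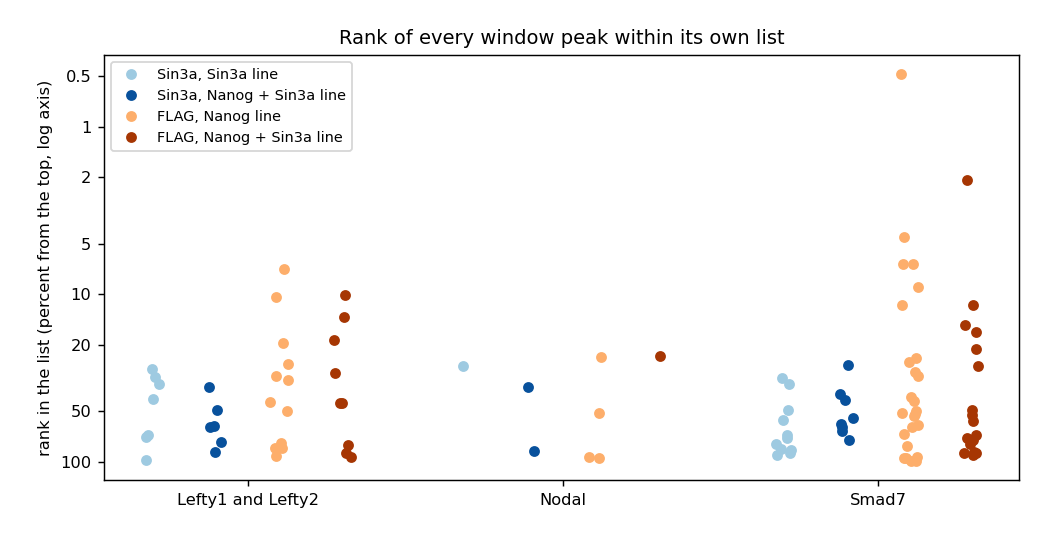
Rank of every window peak in its own list, as percent from the top (y axis, log scale, strongest at the top), by window (x axis) and list (colour), with points spread sideways for clarity. FLAG peaks reach the top 0.483% in the Smad7 window, whereas no Sin3a peak of any window lies above 26.4%.

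By construction 10% of each whole list lies in its top 10%. From the Nanog line 6 of 41 FLAG peaks did, 5 in the Smad7 window and 1 in the Lefty1 and Lefty2 window, and from the Nanog + Sin3a line 1 of 27, in the Smad7 window. For Sin3a this held for 0 of 19 peaks of the Sin3a line and 0 of 16 of the other. The median window peak ranked at 49.5% and 49.1% from the top for FLAG without and with added Sin3a, and at 68.8% and 60.3% for Sin3a without and with added Nanog. In the Smad7 window of the Nanog + Sin3a line the medians of FLAG and Sin3a were alike, at 57.2% and 57.1%. The best Sin3a ranks were 4618 in the Sin3a line, in the Nodal window, and 4805 in the Nanog + Sin3a line, in the Smad7 window.

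The window of Smad7, whose product blocks receptor signalling, had its strongest FLAG site on chromosome 18 at 75534992-75536011. In the Nanog line its FLAG peak ranked 186, with a fold of 20.9 and 136 fragments (114 to 161) at summit 75535418. In the Nanog + Sin3a line it ranked 754, with a fold of 14.3 and 116 fragments (95.9 to 139) at summit 75535435. Sin3a peaks were present at this site in both lines but weak, at rank 14370 (fold 3.54, 31 fragments, summit 75535408) in the Sin3a line and 13486 (fold 3.87, 29 fragments, summit 75535372) in the Nanog + Sin3a line. The FLAG and Sin3a summits of the single-transgene lines lay 10 bp apart. The site with the highest FLAG fold thus had Sin3a peaks from the lower part of their lists, where the median Sin3a peak of the windows also lay.

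Sin3a was strongest in another part of the Smad7 window, between 75525962 and 75531485, where 5 neighbouring sites each held both antibodies. At 75525962-75526765 the Sin3a fold was 5.64 in the Sin3a line (rank 5936, summit 75526510) and 4.33 in the Nanog + Sin3a line (rank 9941, summit 75526528). FLAG had rank 11787 in the Nanog line (summit 75526506), and the Nanog + Sin3a line had split FLAG peaks of rank 31662 (summit 75526112) and 32155 (summit 75526377). The next site, 75526985-75527668, had the highest Sin3a fold of the window in the Sin3a line, 5.84 (rank 5458, summit 75527165), with 57 fragments (43.2 to 73.9), against 3.54 (rank 11935, summit 75527297) and 40 fragments (28.6 to 54.5) in the Nanog + Sin3a line. FLAG had a peak there in the Nanog line, at rank 23741 (fold 4.45, summit 75527123), and none in the Nanog + Sin3a line. This was 1 of the 2 Smad7 sites found in 3 lists.

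The site at 75528449-75529264 showed the reverse order for Sin3a. Its fold was 4.96 in the Sin3a line (rank 8403, summit 75528869, 44 fragments) and 6.29 in the Nanog + Sin3a line (rank 4805, summit 75528901, 48 fragments), the highest Sin3a fold of the window in that line. FLAG ranked 15777 (summit 75528978) and 25175 (summit 75529042) in the Nanog and Nanog + Sin3a lines. At 75529526-75530650 the Sin3a line had peaks of rank 14675 (summit 75529679) and 13430 (summit 75530420), where the Nanog + Sin3a line had 1 wide peak of rank 7828 (summit 75530291). FLAG had ranks 23122 (summit 75529672) and 11157 (summit 75530408) in the Nanog line and 20755 (summit 75530407) in the Nanog + Sin3a line. The last of the 5, 75530954-75531485, was weak, with Sin3a only in the Sin3a line (rank 15293, summit 75531316) and FLAG ranks of 19952 (summit 75531138) and 27002 (summit 75531189).

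Several strong FLAG sites of the Smad7 window had no Sin3a peak in either line. At 75504512-75504995 FLAG ranked 1760 in the Nanog line (fold 11.0, 83 fragments, 66.1 to 103, summit 75504793) and 7739 in the Nanog + Sin3a line (fold 6.41, 59 fragments, 44.9 to 76.1, summit 75504756). At 75520281-75520956 the ranks were 2549 (fold 11.0, summit 75520714) and 6111 (fold 7.79, summit 75520716). A further one, 75565250-75565722, had ranks of 3474 (fold 9.75, summit 75565461) and 4229 (fold 8.62, summit 75565482). In all, 3 of the 15 FLAG-only Smad7 sites and 2 of the 9 with Sin3a reached the top 10% of the Nanog line's list, which are similar shares. Weaker sites of the same kind lay at 75545942-75546447, with ranks 9203 (summit 75546115) and 19025 (summit 75546171), and at 75551351-75551599, with ranks 9731 (summit 75551482) and 17827 (summit 75551470).

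Further sites of all 4 lists flanked the window's centre. At 75547026-75547584 FLAG ranked 4475 (fold 9.18, summit 75547165) and 5547 (fold 8.04, summit 75547148), and Sin3a 9696 (summit 75547214) and 10867 (summit 75547303). At 75569422-75570597 FLAG ranked 2550 (fold 11.0, summit 75570138) and 9691 (fold 6.52, summit 75570129). Sin3a there had peaks of rank 15575 (summit 75569735) and 11815 (summit 75570050) in the Sin3a line, and 1 peak of rank 7158 (fold 5.40, summit 75570132) in the Nanog + Sin3a line. The site at 75502202-75503166 was weak in each list, with FLAG ranks of 16624 and 38132 (summits 75502670 and 75503001) and 26095 and 33267 (summits 75502361 and 75502945), and Sin3a ranks of 12469 (summit 75502475) and 11282 (summit 75502450).

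The other sites of the Smad7 window, which make 11 with the one at 75530954 already given, had a −log10 q under 10 in each list, folds of 2.30 to 4.91 and 20 to 38 fragments. Of these 11, 9 were in 1 list. FLAG of the Nanog line alone had summits at 75501919 (rank 20610), 75504093 (36184), 75538399 (30909), 75540061 (19626), 75540573 (36498), 75544929 (26311), 75548335 (36499) and 75564745 (38167). FLAG of the Nanog + Sin3a line alone had 1, with summit 75522916 (rank 28469). Both FLAG lists had a peak at 75505195-75505565, of rank 19250 (summit 75505474) and 32154 (summit 75505378). Over the 3 windows, 11 of 39 sites held FLAG of the Nanog line alone, against 16% of all sites, and 1 held FLAG of the Nanog + Sin3a line alone, against 14.5%.

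The Lefty1 and Lefty2 window, which holds the genes of both Nodal antagonists, had its highest FLAG fold on chromosome 1 at 182818577-182819378. FLAG there ranked 2711 in the Nanog line (fold 8.94, 80 fragments, 63.4 to 99.6, summit 182818988) and 4943 in the Nanog + Sin3a line (fold 6.85, 77 fragments, 60.8 to 96.2, summit 182819003). Sin3a was weaker at this site, at rank 11908 (fold 3.57, summit 182818897) and 13950 (fold 3.28, summit 182818817) in the Sin3a and Nanog + Sin3a lines. As at the top Smad7 site, Sin3a ranked in the lower part of both of its lists, at 69.4% and 76.5% from the top. The median Sin3a peak of the 3 windows also lay in that part, at 68.8% and 60.3%. A FLAG-only site lay beside it at 182819984-182820257, with ranks 12464 (summit 182820125) and 16235 (summit 182820147).

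By −log10 q averaged over the peaks a site holds, the strongest site of this window, at 182861323-182861687, held FLAG peaks and no Sin3a peak. Over FLAG peaks alone its mean was 32.7, and that of 182818577 was 33.7. It ranked 3974 in the Nanog line (fold 8.52, 67 fragments, 51.9 to 85.1, summit 182861476) and 3659 in the Nanog + Sin3a line (fold 8.25, 78 fragments, 61.7 to 97.3, summit 182861466). The folds of the lines differed less here than at 182818577. The next site along, 182863879-182864116, was a Sin3a peak of the Sin3a line, with rank 12285, a fold of 3.66 and summit 182864041, and was the only site of the 3 windows with Sin3a alone. Another FLAG-only site, 182843818-182844265, ranked 10024 (fold 5.95, summit 182844057) and 10706 (fold 5.49, summit 182844118).

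In the Sin3a line, Sin3a had its 4 best ranks of the Lefty1 and Lefty2 window at sites that also held FLAG in the Nanog line. Such overlap was common at any rank, with 6 of the 7 Sin3a peaks of this window, against 88.5% of the list. At 182833878-182835057 Sin3a ranked 5872 (fold 4.94, 65 fragments, summit 182834470) and 6558 (fold 4.64, 52 fragments, summit 182834613), and FLAG 7492 (fold 6.32, summit 182834334) and 6824 (fold 6.16, summit 182834331). The Nanog + Sin3a line had a further FLAG peak in this site, of rank 32052 (summit 182834794). At 182841848-182842293 Sin3a ranked 5354 in the Sin3a line (fold 5.48, 62 fragments, 47.5 to 79.5, summit 182842043) and 11123 in the Nanog + Sin3a line (fold 3.88, 38 fragments, 26.9 to 52.2, summit 182842028). FLAG ranked 16985 (summit 182842057) and 16245 (summit 182842105) at the same site, with folds of 4.57 and 4.61. Sin3a thus had the higher fold in the single-transgene lines, and FLAG the higher in the Nanog + Sin3a line. Folds of different antibodies come from separate ChIPs with their own scaling, so their sizes are not directly comparable.

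The site at 182872016-182873214 was the one site of the 3 windows with a −log10 q above 10 for FLAG in the Nanog line and no FLAG peak in the Nanog + Sin3a line. FLAG ranked 11880 there, with a fold of 4.16 and 66 fragments (51.0 to 84.0) at summit 182872834. Sin3a ranked 4775 in the Sin3a line (fold 4.37, 86 fragments, 68.8 to 106, summit 182872784) and 9010 in the Nanog + Sin3a line (fold 3.52, 58 fragments, 44.0 to 75.0, summit 182872911). The neighbouring site at 182875705-182876137 kept a weak FLAG peak, at rank 19059 (fold 3.63, summit 182875963) in the Nanog line and 34064 (fold 2.58, summit 182875963) in the Nanog + Sin3a line. Its Sin3a ranks were 7295 (fold 4.10, summit 182875890) and 15953 (fold 2.63, summit 182875920), the latter the lowest of the window in the Nanog + Sin3a line. In both sites each protein had fewer scaled fragments or no peak in the Nanog + Sin3a line. The ratios to the single-transgene line were 0.743 (0.523 to 1.05) and 0.752 (0.498 to 1.13) for Sin3a and 0.705 (0.454 to 1.09) for FLAG. Each interval includes 1. The background expected at the FLAG peak of 182872016 was 2.78 times the genome-wide level. Its part in the missing FLAG peak was not tested.

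The remaining 5 sites of the Lefty1 and Lefty2 window, with the Sin3a site at 182864041 among them, had folds of 2.51 to 3.66 and 31 to 45 fragments. At 182804152-182804472 Sin3a ranked 16722 (summit 182804362) and 11311 (summit 182804351) and FLAG of the Nanog line 29855 (summit 182804295). At 182833027-182833457 FLAG ranked 31730 (summit 182833381) and 28754 (summit 182833092). FLAG of the Nanog line alone had summits at 182831427 (rank 31991) and 182841383 (rank 35649).

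Nodal, the ligand of the pathway, had a window with 2 sites. The weaker one, on chromosome 10 at 60878687-60878910, was a FLAG peak of the Nanog line alone, with rank 19723, a fold of 4.91, 31 fragments (21.1 to 44.0) and summit 60878821. The stronger one, at 60914109-60915715, lay 35198 bp further along, close to the window's end, and held 7 peaks. Whether this site belongs to Nodal or to a neighbouring gene such as Eif4ebp2 was not determined. Its FLAG summits of the Nanog line were 60914149 (rank 36372), 60915012 (rank 35883) and 60915570 (rank 9106, fold 7.04, 45 fragments, 32.8 to 60.2), and the Nanog + Sin3a line had 1 FLAG peak of rank 8521 (fold 6.77, 52 fragments, 38.8 to 68.2, summit 60915568). Sin3a ranked 4618 in the Sin3a line (fold 6.49, 58 fragments, 44.0 to 75.0, summit 60915542) over a peak of 1409 bp. In the Nanog + Sin3a line Sin3a had peaks of rank 15819 (summit 60914358) and 6546 (fold 5.58, 44 fragments, 32.0 to 59.1, summit 60915087). The main FLAG summits of the lines were 2 bp apart, whereas the main Sin3a summits were 455 bp apart.

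The next comparison was between FLAG without and with added Sin3a. Of 41 window peaks found without it, 24 overlapped a peak found with it (58.5%, 43.4 to 72.2%), against 74.2% of the list. In the other direction 26 of 27 did (96.3%, 81.7 to 99.3%), against 79.7%. The list shares lie outside both intervals, which treat neighbouring peaks as independent. The first does not hold under each alternative. With windows narrowed by 10 kb on each side the share was 60.5% (44.7 to 74.4%), against 74.2%. At a −log10 q of at least 5 in every list it was 61.3% (43.8 to 76.3%), against 73.5%. With a cutoff of 10 it was 65% (43.3 to 81.9%), against 73.1%. The second was not computed under these alternatives. Strong and weak peaks differed in this share, by a split chosen after the data were seen. At a −log10 q of at least 10, 19 of 20 peaks of the Nanog line were shared with a peak of any strength (95%, 76.4 to 99.1%, against 96.5%), and under 10, 5 of 21 (23.8%, 10.6 to 45.1%, against 53.9%). The 17 peaks without a counterpart had 20 to 66 fragments with a median of 29, and the 24 with one had 22 to 136 with a median of 48.5. For Sin3a, 16 of 19 peaks of the Sin3a line were shared (84.2%, 62.4 to 94.5%), against 84.2% of the list, and all 16 of the other line, against 80.4%. All 8 window peaks of the Sin3a line with a −log10 q of at least 10 overlapped a Sin3a peak of the other line. With that cutoff in both lists, 3 of 8 were shared (37.5%, 13.7 to 69.4%), where the list had 82.1%. The FLAG share with the cutoff in both lists was 13 of 20 (65%), as given above.

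FLAG signal at shared sites was also lower in the Nanog + Sin3a line. The measure is the ratio of summit fragments, each multiplied by its list's scaling to the control, in the Nanog + Sin3a line over the Nanog line, at peaks that overlap one to one. A ratio below 1 was found at all 20 FLAG pairs of the windows, where 64.3% of the 25845 pairs of the lists lay below 1. Over the 20 pairs together it was 0.786 (exact interval 0.723 to 0.855, counting error only), and over all pairs 0.949. At least 1.5-fold lower were 2 of the 20 pairs, both in the Smad7 window, against 6.28% of all pairs, and none was as much higher, against 4.98%. These were the sites at 75504512, with 0.599 (0.422 to 0.847), and 75569422, with 0.594 (0.405 to 0.864). The strongest Smad7 site had 0.719 (0.556 to 0.928), and the intervals of the other 17 pairs include 1.

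**Figure D3:**
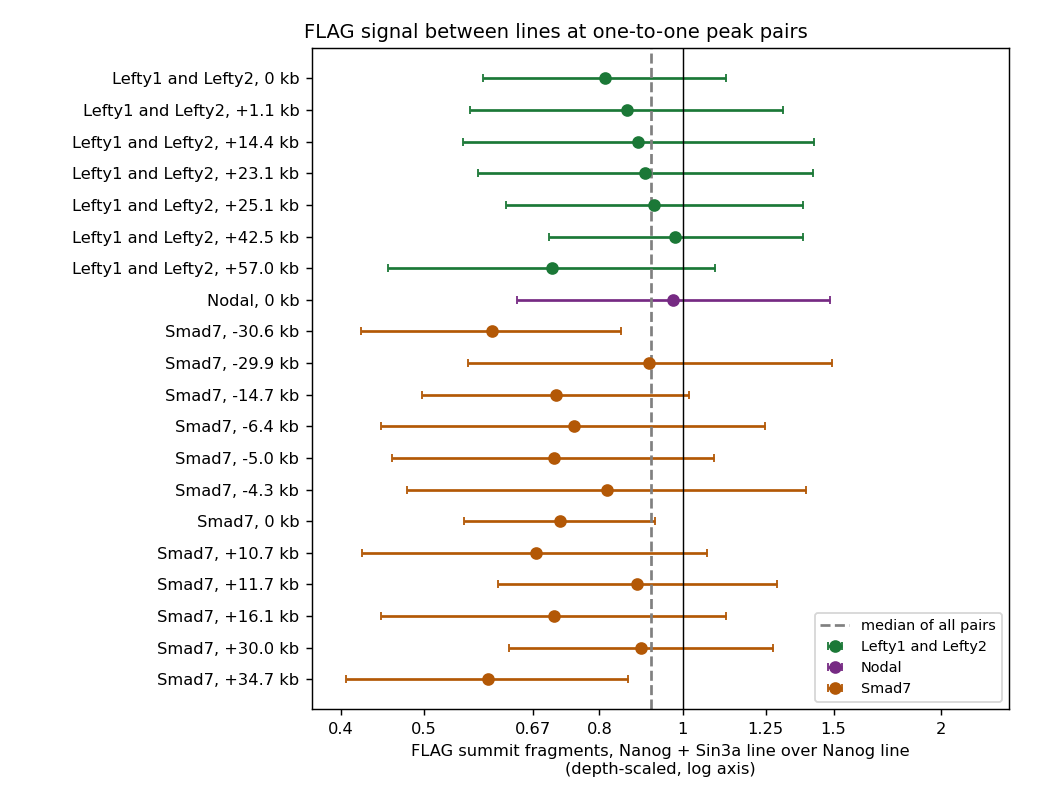
Ratio of depth-scaled FLAG summit fragments in the Nanog + Sin3a line over the Nanog line (x axis, log scale) at the 20 one-to-one peak pairs (y axis, named by window and distance in kb from its strongest FLAG summit), with exact 95% intervals for counting error; the solid line is 1 and the dashed line the median of all pairs, 0.920. Every point lies below 1, from 0.594 to 0.981, and 17 of the 20 intervals include 1.

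The pooled ratio was lowest in the Smad7 window. Its 12 FLAG pairs gave 0.732 together (0.657 to 0.816), the 60 pairs outside it within 2 Mb 0.857 (0.814 to 0.902), and all 769 pairs of chromosome 18 gave 0.922 (0.909 to 0.935). Chromosome 18 also had the lowest median ratio of the 20 chromosomes, 0.879, where the highest was 0.948. The 7 pairs of the Lefty1 and Lefty2 window gave 0.868 (0.751 to 1.00), or 0.854 (0.738 to 0.987) with fragment length also scaled, close to the 0.903 (0.869 to 0.939) of the 91 pairs around it within 2 Mb. They ranged from 0.705 at 182875705 to 0.981 at 182861342. The 1 pair of the Nodal window gave 0.974 (0.641 to 1.49). Of the 8 window pairs with a mean −log10 q of at least 20, 2 were at least 1.5-fold lower, against 5.13% of such pairs in the lists.

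Sin3a signal, compared in the same way between the Nanog + Sin3a line and the Sin3a line, lay on both sides of 1. Of 13 pairs, 8 lay below 1, against 62.3% of 12841, and together they gave 0.905 (0.806 to 1.02), against 0.932 over all pairs. At least 1.5-fold lower were 0 of 13, against 3.92%, and 0 were as much higher, against 1.29%. No Sin3a pair of the windows had a mean −log10 q of at least 20, where 3.74% of such pairs in the lists were 1.5-fold lower. The 6 pairs of the Lefty1 and Lefty2 window gave 0.845 (0.719 to 0.992), or 0.906 (0.771 to 1.06) with fragment length also scaled, and the 48 pairs within 2 Mb of it 0.841. The 7 pairs of the Smad7 window gave 0.974 (0.823 to 1.15), or 1.04 (0.883 to 1.24) with that scaling, where those of FLAG gave 0.732 (0.657 to 0.816). The lowest was 0.676 (0.439 to 1.03) at 182841909 and the highest 1.31 (0.829 to 2.07) at 182804231, and each interval of the 13 includes 1.

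Summits of the antibodies were compared where both had a peak. Over the 14 one-to-one pairs of Sin3a and FLAG in the single-transgene lines the median distance was 49.5 bp (4 to 178 bp). Over 12999 pairs of the lists it was 75 bp. Of the 14 pairs, 11 lay within 100 bp, against 60.4% of the pairs of the lists. In the Nanog + Sin3a line the median distance was 128.5 bp over 10 pairs (3 to 481 bp), against 82 bp over 12359. Of the 10 pairs, 4 lay within 100 bp, against 57.0% of the pairs of the lists. The largest distance was at the pair in the Nodal window.

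The background against which the Lefty1 and Lefty2 peaks were scored was raised. The expected background under a summit, solved from its fold and −log10 p, was at least 1.2 times the genome-wide level of its list at all 34 peaks of this window. In the whole lists this held for 22.4% (Sin3a, Sin3a line), 18.9% (Sin3a, Nanog + Sin3a line), 26.9% (FLAG, Nanog line) and 26.7% (FLAG, Nanog + Sin3a line) of peaks. The window's medians were 1.56, 1.72, 1.62 and 1.55 times the genome-wide level. The rise extended over the distal part of chromosome 1. Beyond 120 Mb its medians were 1.45, 1.41, 1.46 and 1.46, with 84.5 to 85.3% of peaks at 1.2 times or more, whereas up to 100 Mb each median was 1 and the shares 17.0 to 23.2%. The medians of the other chromosomes lay between 1 and 1.06, and those of the Nodal and Smad7 windows between 1 and 1.04.

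**Figure D4:**
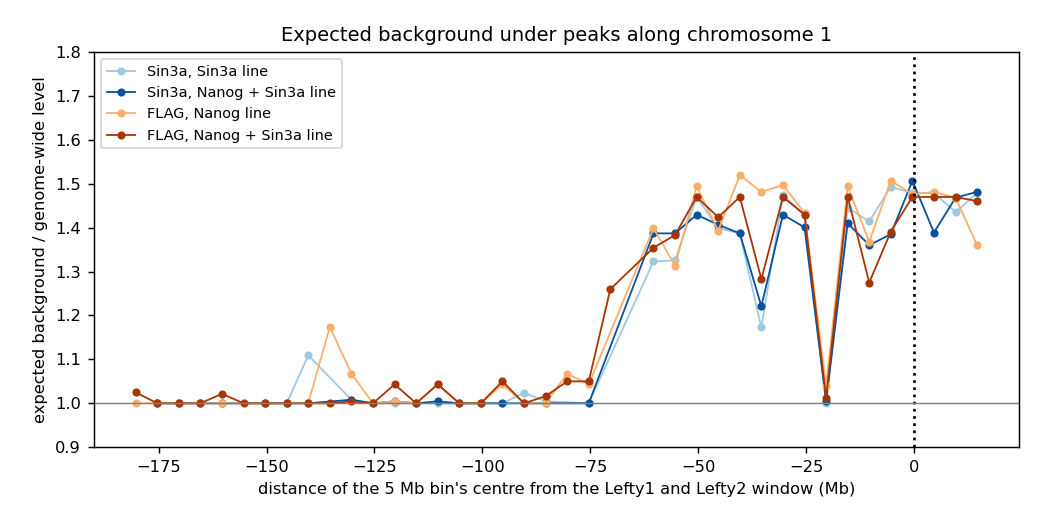
Median expected background under the peaks of each list, relative to the genome-wide level (y axis), in bins of 5 Mb along chromosome 1 with at least 5 peaks, by the distance in Mb of the bin's centre from the Lefty1 and Lefty2 window (x axis; dotted line, the window). Medians are mostly near 1 in the bins farthest from the window and lie between 1.17 and 1.52 in the bins closest to it and beyond it, except 1 bin with medians of 1 to 1.04.

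Folds of the Lefty1 and Lefty2 peaks are relative to this raised background. Set against the genome-wide level, the same fragments would give 12.4 in place of 8.94 for FLAG of the Nanog line at 182818577, and 9.55 in place of 4.37 for Sin3a of the Sin3a line at 182872016. The median FLAG fold of the window in the Nanog line, 4.37, would be 7.58, where the median of all peaks outside chromosome 1 would be 5.21. For FLAG peaks of that line on chromosome 1 beyond 120 Mb, the median of 4.30 would be 5.98. At the strongest Smad7 peak both folds are 20.9. Folds and ranks of the Lefty1 and Lefty2 peaks are therefore not on the same footing as those of the other windows. Ratios of fragments between lines do not divide by the background. They exist only where a peak was called over it in both lines, and the fragments were solved together with it. The part of the raised background in the peak calls of this window was not tested. The thresholds of 1.2 times, 100 Mb and 120 Mb were chosen after the data were seen.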

How the data were processed

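ChIP-seq peaks of 8 ChIP samples in 4 groups were used, with 1 deposited peak list per group, assigned by its name. Input and IgG were not analysed here. Per the submitters' processing notes the build was mm9 and the tools SAMtools 0.1.19, Bowtie 1.0.0 and FastQC 0.10.1, of unstated role. Peak caller and any pooling of replicates: not given in the sources used here. Each deposited list gives a fold ratio, −log10 p and −log10 q at the summit, and a score, which equals 10 times −log10 q without decimals in 100% of rows.

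Fold equals the scaled pileup plus 1 over the expected background plus 1, and −log10 p a Poisson tail, as the values show. From these a single whole number of fragments was found for 99.8% of peaks in the list with the fewest and for each member. Scaling was 0.700 and 0.772 for Sin3a (Sin3a and Nanog + Sin3a lines) and 0.868 and 0.731 for FLAG (Nanog and Nanog + Sin3a lines), on fragments of 209, 195, 181 and 184 bp. The control depth was 25.9 tags per kb in all 4 lists, and total reads were not used here. On simulated data, 5000 peaks per list, 99.9% had 1 number, which was right in 100%.

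Overlap means 1 shared base. Ties in rank were broken by −log10 p, then fold. Ratios carry exact binomial intervals, and called means 1.5-fold. Alternatives were 50% of the shorter peak, summits within 200 bp, a −log10 q of at least 5 or 10, windows narrowed by 10 kb on each side, and folds in place of fragments. Sites were to be given in full when in all 4 lists, strongest in their window or at a −log10 q of at least 10; here every site is listed by rank and summit. Members and lists were chosen with earlier results of these data known. Software was SciPy 1.17.1, pandas 2.3.3, NumPy 2.4.6 and Matplotlib 3.10.9 under Python 3.11.15.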

Additional observations from a re-analysis of the deposited data

How the results depend on the processing

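No paired analysis was possible because the deposited lists hold no columns of single replicates, nor could a replicate be left out. Of 64 alternatives, 54 left the value within its interval or, for a count, within 1.5 times, and 10 did not. All 10 used only peaks with a −log10 q of at least 10, which leaves fewer peaks by construction: 22 sites in place of 39, 2 sites of all 4 lists in place of 12, and 8, 5, 20 and 13 peaks in place of 19, 16, 41 and 27 (Sin3a without and with added Nanog, FLAG without and with added Sin3a). Sin3a peaks at FLAG peaks were then 75.0% in the single-transgene lines, FLAG peaks at Sin3a peaks 30.0% there and 23.1% in the Nanog + Sin3a line, and Sin3a peaks shared between lines 37.5%. The FLAG ratio between lines over the 3 windows was 0.768 from folds and 0.773 with fragment length also scaled, against 0.786, and that of Sin3a 0.930 and 0.969, against 0.905. With fragment length scaled, the Sin3a ratio of the Smad7 window turned from 0.974 to 1.04, and 1 came inside the interval of Sin3a in the Lefty1 and Lefty2 window (0.906, 0.771 to 1.06) and left that of FLAG there (0.854, 0.738 to 0.987). The fragment-length scaling and the alternatives for peak numbers were added after the data were seen. Depth limits single sites: with 20 to 136 fragments over a summit, most intervals of a ratio include 1.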

Other observations

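Sites just outside the windows were not counted. The nearest before the Lefty1 and Lefty2 window, on chromosome 1 at 182779555-182781735, lay 8.27 kb away, was present in all 4 lists and had a −log10 q of 64.4 averaged over its peaks, above that average of each site inside the 3 windows, of which the highest was 47.3. The nearest before the Nodal window, on chromosome 10 at 60845012-60846610, lay 3.39 kb away and was also in all 4 lists, with a mean −log10 q of 10.3. The nearest after the Smad7 window, on chromosome 18 at 75594022-75594422, lay 4.02 kb away, was in 3 lists and had a mean −log10 q of 15.2.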
